A study of Homo sapiens with 18 samples.

Results

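Mimics of miR-708-5p were compared directly with mimics of miR-28-5p in hTERT RPE-1, a human retinal pigment epithelial cell line immortalised with telomerase. The members are the 6 of 18 libraries of the series that are labelled RPE-1 and carry a mimic, 3 with each, and they were chosen by their labels alone. All cells received 30 nM of a synthetic RNA for 72 h, and the controls, 3 further RPE-1 libraries, received the non-targeting siRNA siNT at the same dose, so each group carried a transfected duplex. The same design in MCF10A, a non-tumorigenic human breast epithelial line, supplied 9 libraries for comparison. Polyadenylated RNA was sequenced in paired ends, and a gene's normalised value is its estimated count after division by the size factor of the library.

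A microRNA guides Argonaute to messenger RNAs that pair with its seed, bases 2 to 8 from the 5′ end, and the bound message is destabilised or translated less. Pairing beyond the seed can add to the strength of a site and can tell members of a microRNA family apart. Both microRNAs belong to the MIR-28 family and carry the same seed, miR-28-5p from an intron of LPP and miR-708-5p from one of TENM4, so the comparison asks which genes follow the shared seed and which depend on the remaining bases or on the strength of each mimic.

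The mature miR-708-5p of RefSeq (GRCh38.p14, chr11:79402077-79402099, minus strand) is shown with its seed in capitals, since that seed is what both mimics have in common.
hsa-miR-708-5p: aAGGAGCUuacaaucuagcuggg
The mimics share their first 8 bases and differ at 6 of the first 22, first at base 9 (U9C, with the miR-708-5p base written first and positions counted from the 5′ end). A site in a message can therefore pair with both mimics through base 8 and then continue with only one of them. Such sites are shown as 25 bases of the 3′ UTR (hg38, sense strand), with the bases that pair without a break from base 2 in capitals, in 3 genes where the run is longer with miR-28-5p and then in 2 where it is longer with miR-708-5p.
E2F6, chr2:11445384-11445408: tttaccatTAGACTGTGAGCTCCTt
N4BP1, chr16:48538822-48538846: gccctttcTAGACTGTGAGCTCCTc
EPDR1, chr7:37951478-37951502: ccattatcttggCTGTGAGCTCCTt
SLC31A1, chr9:113264385-113264409: gactgtttTAGATTGTAAGCTCCTg
GTF3C4, chr9:132694211-132694235: ttcattaCTAGATTGTAAGCTCCTc
The run reached base 17 of miR-28-5p in E2F6 and N4BP1 and base 13 in EPDR1. It reached base 17 of miR-708-5p in SLC31A1 and base 18 in GTF3C4. E2F6 and N4BP1 lie on the minus strand and the others on the plus strand. The 5 are examples, and each was lower with the mimic of the longer run (adjusted p below 0.05, limma). Long runs did not go with such a difference in MDGA1, EPC2, ATPAF1 and YLPM1 (base 17 of miR-28-5p) or in NNAT (base 23 of miR-708-5p).

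Read depth is not known, because the values were already divided by size factors. One library stood apart before any comparison. In miR-28-5p replicate 1, ribosomal RNA genes and mitochondrial-like transcripts made up 16.7% of the summed values, against 4.84 to 7.88% in the other 8 libraries. The miR-28-5p libraries were also the least alike. Replicate 2 had a Spearman correlation of 0.980 with replicate 1 and of 0.990 with miR-708-5p replicate 2, whereas the miR-708-5p libraries correlated at 0.994 to 0.996 with each other. Of 14 markers of retinal pigment epithelium, 10 were listed and 8 passed the filter, and RPE65, TYR, DCT and TTR were not listed. MITF and OTX2 were present in the siNT libraries at means of 1908 and 951. Of 8 basal breast epithelial markers, only DSC3 and TP63 were listed, and all 7 mesenchymal markers were.

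Directly between the mimics, 3084 of 14527 genes tested passed an adjusted p of 0.05 in RPE-1 (limma, Benjamini-Hochberg), or 21.2%. Of these, 1435 were higher with miR-708-5p (9.88% of the genes tested) and 1649 were lower (11.4%), and 5124 genes had an unadjusted p below 0.05. A difference of at least 2-fold as well was seen in 372 genes that were higher and 328 that were lower. The count moved with the libraries: it was 1509 without miR-708-5p replicate 3, 1650 without miR-28-5p replicate 3, 1894 without miR-708-5p replicate 1, 2090 without miR-28-5p replicate 1 and 4083 without miR-28-5p replicate 2. Library size scaling shifts the median of all genes by 0.23 on the log2 scale, and among the genes called it moves the higher share from 46.5% to 84.8%. The direction of small differences therefore depends on the scaling, and every log2 difference below is relative to a median gene at -0.0022.

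Against siNT, 46.8% of all genes tested were called with miR-28-5p and 62.1% with miR-708-5p. Among the genes called between the mimics, more extended the shared response with miR-708-5p than fell short of it. Of the 3084 genes, 1417 (45.9%) were called with both mimics against siNT in the same direction and were farther from siNT with miR-708-5p, 621 of them above siNT and 796 below. Another 1155 were called with miR-708-5p alone, and 801 of these (69.4%) had a miR-28-5p value on the same side of siNT. Departures were fewer. Both mimics were called in opposite directions in 33 genes and in the same direction, nearer to siNT with miR-708-5p, in 76. For miR-28-5p alone the count was 262, and neither was called in 141. By sign alone, called against siNT or not, 2218 of the 3084 (71.9%) were on the same side and farther with miR-708-5p. Another 188 (6.10%) were on the same side and nearer, and 678 (22.0%) were on opposite sides. Over all genes tested, 4609 were called with both and farther with miR-708-5p, and 1326 with both and nearer. The classes and the direct comparison use the same libraries, so these are counts and not a test.

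**Figure D1:**
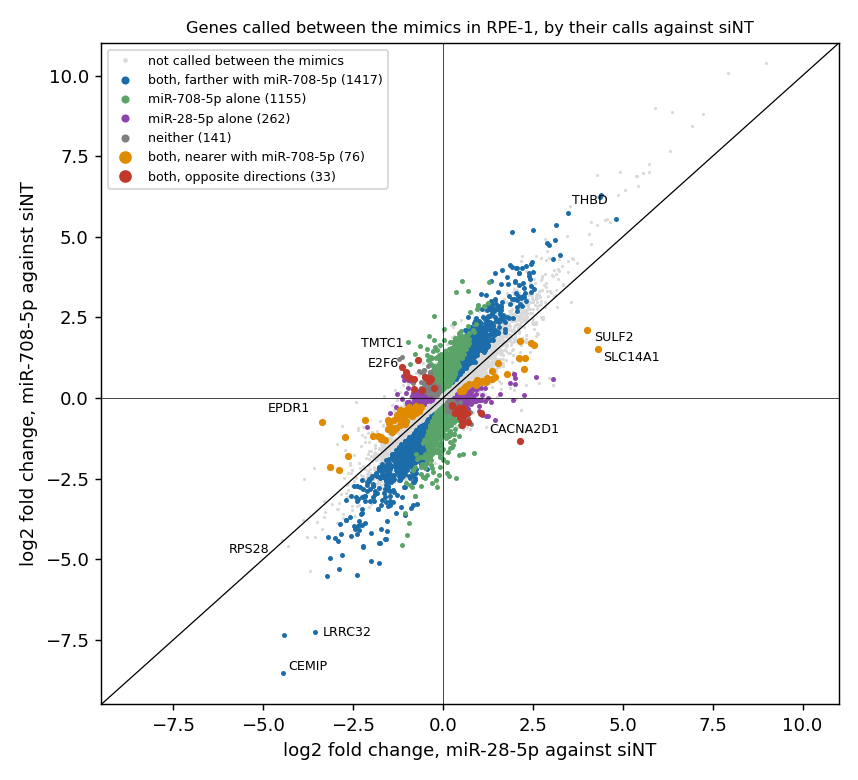
Log2 fold change against siNT with miR-28-5p (x axis) and with miR-708-5p (y axis) for the RPE-1 genes tested, where each point is a gene, grey points were not called between the mimics, and colours give the class of the 3084 genes called. Genes above siNT with both mimics lie mostly above the diagonal and genes below siNT mostly below it, while EPDR1, SULF2 and SLC14A1 lie nearer to siNT with miR-708-5p and E2F6, TMTC1 and CACNA2D1 are on opposite sides of siNT.

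The extension was smaller when the shared response was taken from MCF10A, which has no library in common with RPE-1. For the 384 genes whose RPE-1 fold changes averaged above 2 on the log2 scale, the median difference between the mimics was 0.79, and for the 239 averaging below -2 it was -0.81. Without miR-28-5p replicate 1 the first of these medians was 0.48. For genes above 2 in MCF10A, of which 123 were tested in RPE-1, the median difference in RPE-1 was 0.39, and for the 17 below -2 it was -0.088. For the 684 genes at 1 to 2 in MCF10A it was 0.14, with 51 called higher (7.46%) and 68 lower (9.94%). For the 270 at -2 to -1 it was -0.13, with 22 higher (8.15%) and 70 lower (25.9%). The shares over all genes tested were 9.88% higher and 11.4% lower. Of the 1083 genes that rose with both mimics in MCF10A, the RPE-1 median against siNT was 0.54 with miR-28-5p and 0.61 with miR-708-5p. Directly between the mimics their median was 0.063, and for the 1346 genes that fell with both in MCF10A it was -0.059.

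Of 50 mitosis and G2/M genes, 46 were higher with miR-708-5p (92%, against 9.88% of all genes tested) and none was lower (11.4% of all genes tested). The median log2 difference was 0.99. Of the 46, 9 were called with both mimics and farther with miR-708-5p, 35 with miR-708-5p alone and 2 with miR-28-5p alone. Against siNT, 45 of the 50 rose with miR-708-5p (30.9% of all genes tested rose), while 9 rose and 3 fell with miR-28-5p (23.3% and 23.5% of all genes tested). The median of the list relative to siNT was 0.14, 0.30 and 0.30 in the miR-28-5p libraries and 1.23, 0.84 and 1.37 in the miR-708-5p libraries, so the mimics did not overlap, while siNT replicates themselves lay between -0.36 and 0.24. Without miR-28-5p replicate 1, 43 members stayed above the threshold and the median was 0.93. Without miR-708-5p replicate 3, 30 did.

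TTK, a kinase of the spindle checkpoint (chr6:80003887-80042527), measured 565, 790 and 631 with miR-28-5p and 1746, 1415 and 1841 with miR-708-5p. The siNT libraries were lowest, at 496, 338 and 451. Its log2 difference between the mimics was 1.34 (95% confidence interval 0.96 to 1.71, adjusted p = 0.00101, limma). HMMR, a spindle-associated hyaluronan receptor, differed by 1.39, ESPL1, the separase that cuts cohesin, by 1.39, AURKB, the kinase of the chromosomal passenger complex, by 1.27 and KIF2C, a microtubule depolymerase, by 1.26. ESPL1 was on the other side of siNT with miR-28-5p (-0.53, not called) than with miR-708-5p (0.86, called).

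DNA replication genes moved the same way. Of 50, 35 were higher (70%) and 1 lower (2%) with miR-708-5p, with a median difference of 0.82. Over all genes tested these shares were 9.88% and 11.4%. Against siNT, 39 rose with miR-708-5p and 16 with miR-28-5p, where 30.9% and 23.3% of all genes tested rose. The largest differences were in ORC6 (1.42) and ORC1 (1.35), subunits of the origin recognition complex, in MCM10 (1.26) and CDC45 (1.23), which act when the replicative helicase is started, and in PRIM1 (1.26), a primase subunit. ORC6 measured 234.5, 493.7 and 297.1 with miR-28-5p and 827, 759 and 1057 with miR-708-5p. The gap was narrowest for replicate 2 of each mimic, as it was for the list as a whole (medians of 0.52 and 0.62 relative to siNT). The count of members called higher was 26, 39 and 20 without miR-28-5p replicate 1, 2 or 3, and 21 and 19 without miR-708-5p replicate 1 or 3.

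CDKN1A, which encodes the inhibitor p21, measured 5895, 4753 and 5701 with miR-28-5p and 3112, 3470 and 2993 with miR-708-5p, a difference of -0.77 (adjusted p = 0.00119, limma). It was near siNT with miR-28-5p (-0.16, adjusted p = 0.21, limma) and below it with miR-708-5p (-0.93). CDKN2B, which encodes p15 and was named after its values were seen, measured 3856, 3784 and 2715 with miR-28-5p and 969, 1371 and 743 with miR-708-5p, a difference of -1.77. Of 27 p53 target genes, 8 were lower (29.6%, against 11.4% of all genes tested) and none higher, with a median difference of -0.13. Under library size scaling 4 were lower and 2 higher and the median was 0.10, so the direction of the list depends on the scaling. TP53INP1, a p53-induced regulator of cell death and autophagy, rose with both mimics but less with miR-708-5p (2.27 against 1.24 relative to siNT). ZMAT3, an RNA-binding p53 target, differed by -1.37 and TP53I3, an oxidoreductase, by -0.81. The count of p53 targets called lower was 4 without miR-28-5p replicate 1 and 3 to 9 over all libraries left out in turn, and the call of ZMAT3 was lost without any of 3 libraries. MYC, the growth-promoting transcription factor, differed by -0.037 between the mimics (95% confidence interval -0.44 to 0.37, adjusted p = 0.911, limma).

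Among genes with a mean of at least 100 over the 6 mimic libraries, the largest difference was downward. CEMIP, which takes part in the breakdown of hyaluronan (chr15:80779343-80951776), measured 56705, 60063 and 68400 with siNT, 3923, 1496 and 3825 with miR-28-5p and 171, 176 and 146 with miR-708-5p. It was 17.1-fold lower with miR-708-5p than with miR-28-5p (log2 difference -4.10, standard error 0.30, adjusted p = 7.2e-05, limma), and the 3 groups did not overlap. COL4A3 and COL4A4, basement membrane collagen chains encoded next to each other on chromosome 2 in opposite directions, were 6.88-fold and 6.61-fold lower. COL4A4 (chr2:227002714-227164453) measured 8818, 8171 and 9306 with miR-28-5p and 1327, 1536 and 1139 with miR-708-5p, against 25189 to 37833 with siNT. Both mimics lowered the pair, and miR-708-5p lowered it more.

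The 12 largest decreases under that limit were chosen by size and form no tested group, and 4 of them were in genes of the contractile apparatus. ACTA2, smooth muscle actin (chr10:88935074-88991339), measured 14876, 11286 and 11912 with miR-28-5p and 2307, 2117 and 1964 with miR-708-5p, a 5.93-fold difference (adjusted p = 0.00125, limma). The siNT libraries were spread from 17973 to 59612, but all lay above both mimics. TAGLN, the actin-binding transgelin, was 5.61-fold lower, LMOD1, a leiomodin that nucleates actin filaments, 5.71-fold lower, and LDB3, a Z-disc protein, 6.00-fold lower. Each of these had fallen with miR-28-5p too, by 0.72 to 1.56 on the log2 scale. The other decreases of this size were in CRISPLD2 (8.53-fold), a secreted protein, PTGIS (8.31-fold), the prostacyclin synthase, CLSTN2 (7.65-fold), a calsyntenin, SLC14A1 (6.96-fold), a urea transporter, and DIRAS1 (6.01-fold), a small GTPase. All of these but CLSTN2, which missed the threshold against siNT with miR-28-5p (-0.95), and SLC14A1, which rose with both mimics, had fallen with both.

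**Figure D2:**
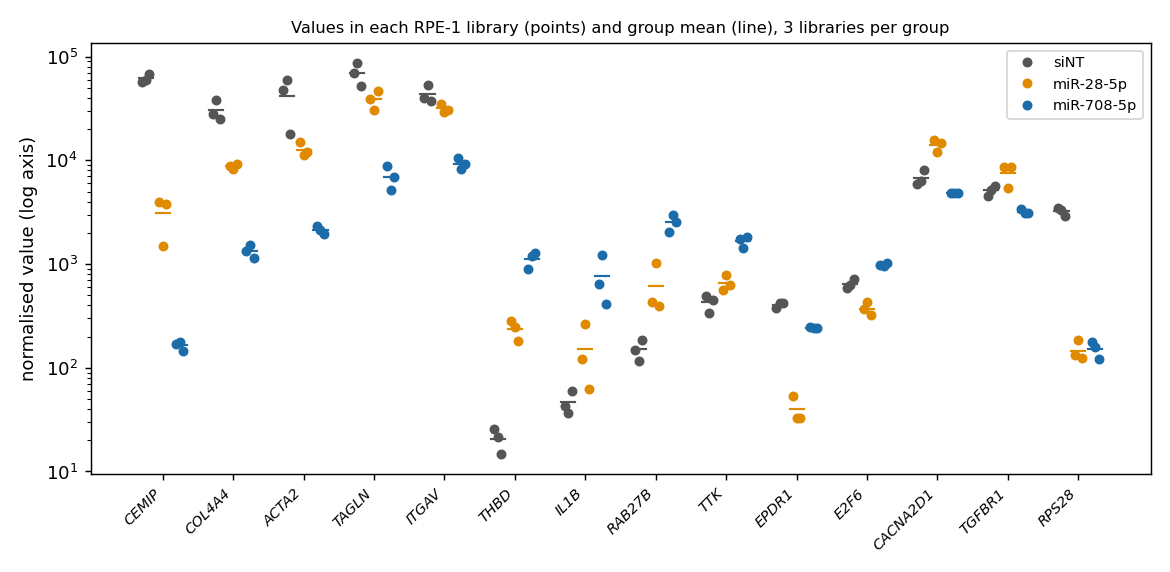
Normalised value on a log axis in each of the 9 RPE-1 libraries for 14 genes, where points are libraries and short lines are the means of 3. For CEMIP, COL4A4, ACTA2, TAGLN and ITGAV the miR-708-5p libraries lie below the miR-28-5p libraries, for E2F6 and CACNA2D1 the mimics lie on opposite sides of siNT, and for RPS28 they overlap.

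Of 42 other matrix proteins and matrix enzymes, 18 were lower (42.9%) and 4 higher (9.52%), with a median of -0.51. Over all genes tested 11.4% were lower and 9.88% higher. Under library size scaling 14 of the list were lower and 7 higher. The per-library medians relative to siNT were -0.03 to 0.13 with miR-28-5p and -0.71 to -0.61 with miR-708-5p. BGN, the proteoglycan biglycan, measured 590, 1040 and 530 with miR-28-5p and 159, 299 and 131 with miR-708-5p (difference -1.90), and FBLN5, an elastic fibre protein, differed by -1.94. DCN, the proteoglycan decorin, differed by -2.28, but lost its call without any of 5 libraries. Of 17 integrin subunits, 8 were lower (47.1%) and 1 higher (5.88%), with a median of -0.55. The median was -0.30 without miR-708-5p replicate 2, -0.36 with a pseudocount of 10 and -0.32 under library size scaling, and 8 were lower with any library left out. ITGAV, the alpha chain of the vitronectin receptors, measured 34886, 29440 and 30512 with miR-28-5p and 10426, 8244 and 9181 with miR-708-5p. Its difference was -1.77, against 0.44 by which it fell with miR-28-5p relative to siNT. ITGA10, ITGB4, ITGA11 and ITGB3 differed by -1.73, -1.59, -1.45 and -1.28. Of 27 collagen and laminin chains, 8 were lower (29.6%) and 4 higher (14.8%), with a median of -0.36. Under library size scaling 4 were lower and 4 higher (median -0.13), and 4 to 9 were lower with a library left out. COL11A1, a fibrillar collagen, differed by -1.39, COL1A1 by -1.69 with a call that was lost without any of 6 libraries, while COL13A1, a transmembrane collagen, and LAMA3, an epithelial laminin chain, were higher, by 1.38 and 2.24.

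More members of the TGF-beta pathway were lower than higher with miR-708-5p. Of 31 genes, 17 were lower with miR-708-5p (54.8%) and 2 higher (6.45%), with a median of -0.40. Over all genes tested 11.4% were lower and 9.88% higher. The list medians relative to siNT were 0.11 to 0.15 with miR-28-5p and -0.34 to -0.26 with miR-708-5p. Scaled by library size, 8 were lower and 3 higher. The count of lower members was 13 without miR-28-5p replicate 1, 10 without its replicate 3, and 8 and 9 without miR-708-5p replicates 1 and 3. LRRC32, which anchors latent TGF-beta on the cell surface, measured 101, 166 and 70 with miR-28-5p and 5.5, 12.4 and 5.1 with miR-708-5p, against 791 to 2239 with siNT. TGFB2, a ligand, fell from 28739, 19928 and 29458 to 10706, 9502 and 9903 (difference -1.36). INHBB, an activin subunit, differed by -2.05. TGFBR1, the type I receptor (chr9:99104038-99154192), was above siNT with miR-28-5p and below it with miR-708-5p, at 0.54 and -0.68, both called. ID3, a target of BMP signalling, was at 0.0021 relative to siNT with miR-28-5p and lower with miR-708-5p (-0.86). Of 24 YAP target genes, 8 were lower (33.3%) and none higher (median -0.23), among them ANKRD1 (-1.09) and the matricellular CCN2 (-0.81). Under library size scaling 4 were lower and 3 higher, with a median of 0.0055.

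Under the same limit, the genes with the largest increases were of mixed function. THBD, the anticoagulant receptor thrombomodulin (chr20:23045633-23049672), measured 281, 248 and 183 with miR-28-5p and 897, 1204 and 1285 with miR-708-5p, and 14.7 to 25.9 with siNT. It was 4.75-fold higher (adjusted p = 0.000397, limma), and no group overlapped another. ABCC9, a subunit of potassium channels, was 6.53-fold higher, RAB27B, a GTPase of secretory vesicles, 4.48-fold, and TFPI2, a protease inhibitor, 4.05-fold. SLC16A6, a monocarboxylate transporter, was 5.00-fold higher, IL7R, a cytokine receptor chain, 4.79-fold, SPP1, the secreted phosphoprotein osteopontin, 4.27-fold, and CD68, a lysosomal glycoprotein, 3.97-fold. IL7R, SLC16A6, SPP1 and TFPI2 did not pass the threshold with miR-28-5p against siNT. The call of CD68 was lost without any of 3 libraries and that of LAMA3 without either of 2.

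Inflammatory cytokines and NF-kB genes were higher in 5 of 19 tested members (26.3%, against 9.88% of all genes tested), with none lower and a median of 0.64. IL1B measured 122, 267 and 61.7 with miR-28-5p and 641, 1231 and 412 with miR-708-5p, and 36.5 to 60.2 with siNT. IL1A, the other interleukin-1 ligand, differed by 2.92, but it failed the limit on the mean or on overlap by which the largest increases were chosen. The chemokines CXCL3, CXCL2 and CXCL8 differed by 2.62, 2.28 and 1.96. CXCL3 and CXCL2 were low, with means of 44.3 and 29.3 with miR-708-5p. With the replicate number as a block, 9 were higher and 1 lower, and without miR-28-5p replicate 2, 12 were higher. The list median was not even among the miR-28-5p libraries, at -0.32, 1.02 and -0.60 relative to siNT, and replicate 2 lay above 2 of the 3 miR-708-5p libraries (0.71, 1.14 and 0.44).

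**Figure D3:**
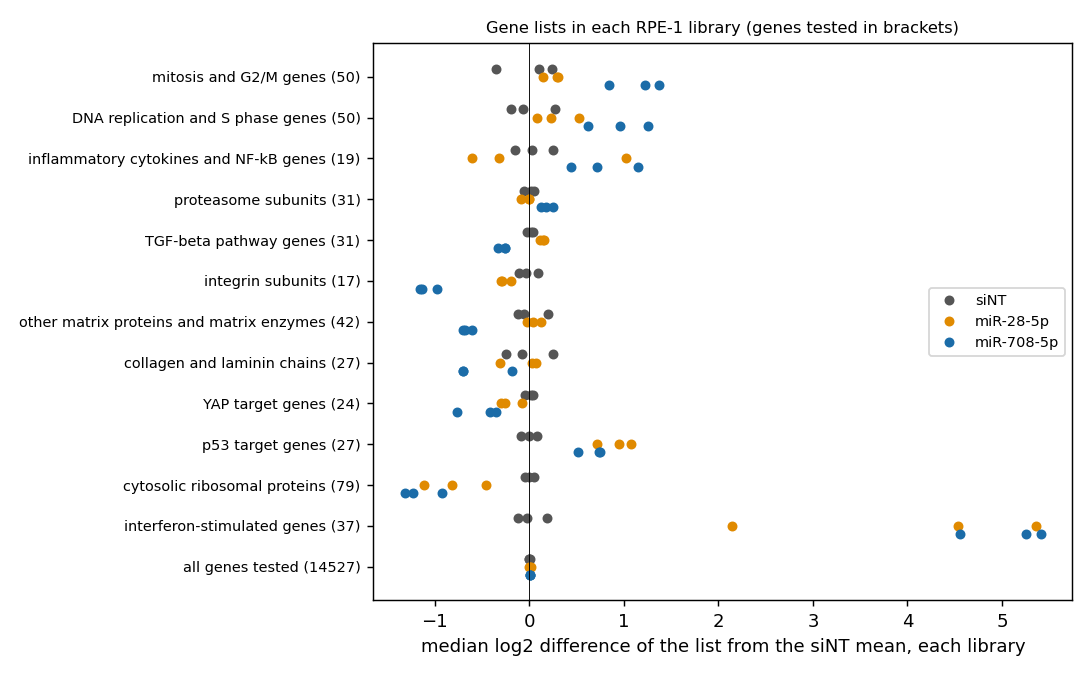
Median log2 difference from the siNT mean over the genes of each list, with a point for each RPE-1 library and the number of genes tested in brackets. The mimics do not overlap for mitosis, DNA replication, proteasome, TGF-beta, integrin and other matrix lists, and miR-28-5p replicate 1 lies apart for interferon-stimulated genes, at 2.14 against 4.53 and 5.36.

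Departures in the other direction were led by EPDR1, a secreted ependymin-related protein (chr7:37920640-37951936). It measured 379, 419 and 420 with siNT, 53.4, 32.8 and 32.6 with miR-28-5p and 245, 243 and 243 with miR-708-5p, so both mimics lowered it and miR-28-5p lowered it 6.18-fold more (adjusted p = 7.2e-05, limma). E2F6, a repressor of E2F targets (chr2:11444375-11466177), measured 588, 629 and 721 with siNT, 369.7, 429.1 and 319.2 with miR-28-5p and 971, 950 and 1014 with miR-708-5p. It fell with miR-28-5p (-0.80) and rose with miR-708-5p (0.60), and the direct difference was 1.40 (95% confidence interval 1.13 to 1.67). The other genes of largest difference with opposite directions were MPP4 (4.29-fold higher), a scaffold protein, TMTC1 (1.86 on the log2 scale), a mannosyltransferase, CD70 (1.53), a ligand of the TNF family, and CACNA2D1 (-1.52), a calcium channel subunit. CACNA2D1 was the only one of these 5 that was above siNT with miR-28-5p, with 15539, 11979 and 14677 against 4860, 4860 and 4882 with miR-708-5p.

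Among the genes nearer to siNT with miR-708-5p, C11orf24 fell by 2.18 with miR-28-5p and by 0.68 with miR-708-5p. BAK1, a pore-forming effector of apoptosis, fell by 1.54 and by 0.67. SLC14A1, SULF2, a heparan sulfate endosulfatase, and COL14A1, a fibril-associated collagen, rose with both mimics and were 6.96-fold, 3.71-fold and 2.56-fold higher with miR-28-5p. SULF2 lost its call without either of 2 libraries. MRPL38, a mitochondrial ribosomal protein, and PSMB7, a catalytic proteasome subunit, were lower than siNT with miR-28-5p (-0.48 and -0.70) and not called with miR-708-5p (0.27 and 0.0036), with direct differences of 0.76 and 0.70.

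Some shared responses did not differ detectably, among them the strong fall of RPS28. RPS28, the small subunit ribosomal protein named by the study, measured 3465, 3301 and 2892 with siNT, 132, 184 and 123 with miR-28-5p and 177, 160 and 123 with miR-708-5p. The mimics overlapped, and their difference was 0.069 with a 95% confidence interval of -0.32 to 0.46. Of 5 metallothioneins and their zinc exporter tested, none was called (median -0.070), while 4 fell with each mimic. TENM4, host gene of miR-708, was above siNT by 0.90 and 0.89 and differed by -0.011. LPP, host gene of miR-28, did differ, at -0.99 (adjusted p = 0.00257, limma), with values of 13174, 8304 and 12152 with miR-28-5p and 5656, 5046 and 5934 with miR-708-5p.

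The counts for cytosolic ribosomal proteins and interferon-stimulated genes moved with several libraries. Of 79 ribosomal proteins, 76 fell with miR-28-5p and 79 with miR-708-5p (23.5% and 31.2% of all genes tested fell). Between the mimics 5 were called lower (median -0.36), among them RPL23A (-0.60) and RPL14 (-0.55). The 5 are 6.33% of the list, below the 11.4% of all genes tested. RPLP0, of largest difference in the list (-0.66), had an adjusted p of 0.0519 (limma). Without miR-28-5p replicate 1, 1 was called and the median was -0.19, and without replicate 2 of that mimic, 65 were called and the median was -0.50. Without miR-708-5p replicate 3 none was called. With the replicate number as a block 38 were called, and under library size scaling none was. Ribosomal protein genes have many near-identical copies in the genome, so their estimated counts carry that uncertainty, as do those of the HLA genes. Of 37 interferon-stimulated genes, all rose with both mimics, by a median of 4.11 and 5.02, and all 37 differences between the mimics were above 0 (median 1.01), yet none was called. OAS2, a sensor of double-stranded RNA, measured 109, 5639 and 2478 with miR-28-5p and 3526, 6250 and 6035 with miR-708-5p. IFI27, an interferon-induced membrane protein, was at 20.7 in miR-28-5p replicate 1 and at 1619 and 544 in the other two, and ISG20, an exonuclease, at 27.3 against 880 and 324. Without that library the median difference of the list was 0.07, and without replicate 2 of that mimic it was 1.72 with 19 genes called. Of 17 MHC class I presentation genes, 1 was called (5.88%, against 21.2% of all genes tested). It was ERAP2 (1.21), a peptide-trimming enzyme, and its call was lost without any of 7 libraries. Without miR-28-5p replicate 2, 10 of the list were called higher and its median went from 0.62 to 1.08, and without replicate 1 the median was 0.30. PSMB9 (1.41) and HLA-B (1.14) missed the threshold, at adjusted p of 0.134 and 0.0801 (limma).

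Proteasome subunits were higher in 13 of 31 (41.9%, against 9.88% of all genes tested) and lower in none (median 0.26), with PSMD2 at 0.55 and PSMD3 at 0.51. The count was 5 to 15 with a library left out, 6 without miR-28-5p replicate 1 and 28 under library size scaling. NRF2 targets were higher in 7 (33.3%) and lower in 2 (9.52%) of 21, against 9.88% and 11.4% of all genes tested. Under library size scaling 12 were higher and 1 lower. Integrated stress response genes were higher in 7 (23.3%) and lower in 3 (10%) of 30 (ATF3 at 0.98, SLC7A5 at -1.15), or 11 and 1 under library size scaling. Mitochondrial ribosomal proteins were higher in 8 of 76 and lower in none. The 8 are 10.5%, near the 9.88% of all genes tested, and the count was 44 under library size scaling. Endoplasmic reticulum chaperones and unfolded protein response genes were lower in 5 (20.8%) and higher in 1 (4.17%) of 24, against 11.4% and 9.88% of all genes tested. Under library size scaling 3 of this list were lower and 3 higher, and its median went from -0.12 to 0.11. HERPUD1, SEL1L and HYOU1 were at -0.89, -0.68 and -0.67. BCL2 family genes were higher in 3 (21.4%) and lower in 2 (14.3%) of 14, with HRK at 2.02, BAK1 at 0.87 and BCL2 at 0.72 the higher ones. Under library size scaling 6 of them were higher and none lower. Lysosomal genes were higher in 5 (14.3%) and lower in 6 (17.1%) of 35, with CTSL at 1.29 and NPC1 at 0.74, and under library size scaling higher in 11 and lower in 1. For 8 lists not described above the count was 4 or fewer, a share at or below the 21.2% of all genes tested. They were Argonaute and microRNA processing genes (4 of 20), RNA polymerase I machinery (3 of 18), respiratory chain and ATP synthase subunits (3 of 76), cholesterol synthesis and SREBP genes (2 of 29), interferon pathway regulators (2 of 26), ribosome biogenesis factors (2 of 66), glycolytic enzymes (1 of 19) and prostanoid synthesis genes (1 of 9, PTGIS). Their medians lay between -0.083 and 0.26. Under library size scaling 39 ribosome biogenesis factors, 14 respiratory chain genes and 10 cholesterol genes were higher and none was lower. In the marker lists, 3 of 7 mesenchymal (42.9%), 2 of 3 simple epithelial (66.7%), 1 of 8 retinal pigment epithelial (12.5%) and both basal markers were lower and none was higher. Over all genes tested 11.4% were lower. Markers of simple epithelium summed to 9903 to 11057 with miR-28-5p and 5182 to 5666 with miR-708-5p. In bulk libraries a change in the mix of cells and a change in RNA per cell cannot be told apart.

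The match to the shared seed went with a small difference between the mimics. Of the genes tested, 12726 (87.6%) matched a GENCODE 3′ UTR by symbol, and the longest annotated 3′ UTR of each was searched on the sense strand. For the 2153 genes with the match to bases 2 to 8, AGCTCCT, the median difference between the mimics was -0.075, against 0.028 for the 7831 with no GCTCCT. Scaled by library size, these medians were 0.16 and 0.26. Against siNT, the genes with AGCTCCT had a median of -0.16 with miR-28-5p and -0.25 with miR-708-5p. An A before the match, which pairs with base 9 of miR-708-5p, gave a median difference of -0.069 (487 genes), a G, which pairs with base 9 of miR-28-5p, -0.071 (524 genes), both -0.11 (55 genes) and any other base -0.076 (1087 genes). Genes with GCTCCTA had a median of -0.033 (447 genes) and those with GCTCCT alone -0.037 (2295 genes).

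The limit of base 16 was chosen after values of these genes had been seen, so what follows is a description. With pairing through base 9, 10 or 11 to 12 of miR-28-5p, the medians were -0.087, -0.088 and -0.15. With pairing through base 13 to 15 the median was 0.12 over 9 genes, of which EPDR1 was called higher and KCNC4, a potassium channel subunit named after its values were seen, lower (-1.23). With pairing through base 16 or beyond the median was 0.54 over 10 genes. Of these 10, 6 were higher with miR-708-5p and 1 was lower. The higher ones included E2F6 (1.40), SEMA3A (0.88), a secreted guidance protein, N4BP1 (0.68), a ribonuclease that limits NF-kB activity, URGCP (0.67) and SLC16A7 (0.63), a monocarboxylate transporter. Not all of the 6 fell with miR-28-5p against siNT, since SEMA3A rose (1.15) and N4BP1 was not called (-0.34). YLPM1 was lower (-0.35), and ATPAF1 (0.10), EPC2 (-0.024) and MDGA1 (0.015) were not called. N4BP1 measured 1448, 2097 and 1651 with miR-28-5p and 2400, 2875 and 2999 with miR-708-5p, with no overlap.

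For miR-708-5p, 8 genes paired through base 13 to 15, with a median of -0.12 and CDKN2B alone called, lower. Another 5 genes paired through base 16 or beyond, with a median of -0.31. SLC31A1, a copper importer, measured 552, 772 and 551 with miR-28-5p and 303, 310 and 316 with miR-708-5p, against a mean of 2278 with siNT (difference -0.99, adjusted p = 0.0012, limma). GTF3C4 (-0.45), a transcription factor of RNA polymerase III, KPNA4 (-0.30), an importin, and SON (-0.31), a splicing cofactor, were lower too. The count of lower genes was 2 without miR-28-5p replicate 1 or 3 or miR-708-5p replicate 1 or 3, and under library size scaling only SLC31A1 was called. NNAT, a small membrane protein whose 3′ UTR pairs through base 23, went the other way, with 32.7, 31.9 and 30.3 with miR-28-5p and 58.9, 60.9 and 62.1 with miR-708-5p. Of the 31 genes with unbroken pairing through base 11 to 12 of miR-28-5p, CEMIP (base 11) was at -4.10, so a longer run with a mimic did not always go with a lower value for that mimic.

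**Figure D4:**
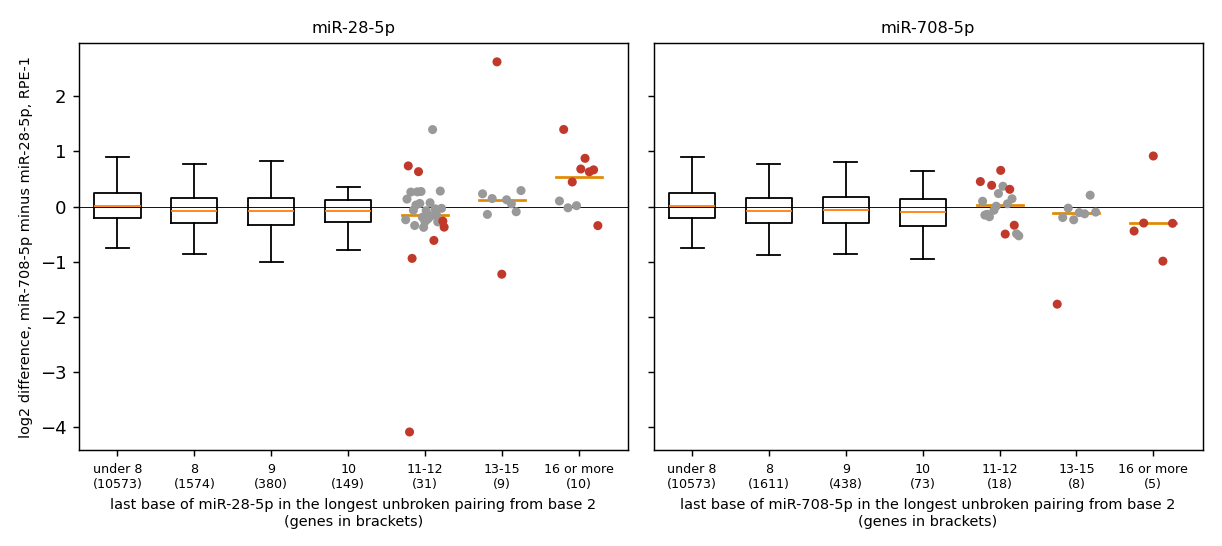
Log2 difference between the mimics in RPE-1 by the last base in the longest unbroken pairing from base 2, for miR-28-5p (left) and miR-708-5p (right). Boxes show the median and quartiles with whiskers at the 5th and 95th percentiles, points are single genes in the smaller groups (red if called), and the line is their median. The medians lie between -0.15 and 0.028 up to base 12, at 0.12 and -0.12 for base 13 to 15, and at 0.54 and -0.31 for pairing through base 16 or beyond.

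In MCF10A, 228 of 14726 genes differed between the mimics (1.55%), of which miR-708-5p was the higher in 189 (1.28%) and the lower in 39 (0.265%). Of 13339 genes tested in both lines, 2853 were called in RPE-1, 201 in MCF10A and 49 in both, which is 1.72% of the RPE-1 list and 24.4% of the MCF10A list. Of the 49, 43 had the same direction. The difference between the mimics itself differed between the lines for 846 genes (6.34%, limma estimates of each line, Benjamini-Hochberg adjusted p below 0.05), 447 more positive in RPE-1 and 399 more negative. Under library size scaling in both lines it was 1445.

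The lines parted at the cell cycle. Of the 50 mitosis genes, none was called between the mimics in MCF10A, where the median was -0.03, and the line difference was called for 37, each more positive in RPE-1. For DNA replication it was called for 24. ACTA2 and TAGLN differed by 0.22 and -0.11 in MCF10A and ITGAV by -0.36, and the line difference was called for each of them. Interferon-stimulated genes had a median difference above 0 in both lines, but a larger one in MCF10A (3.11), where 35 of 37 were called higher with miR-708-5p. Their MCF10A median against siNT was 0.40 with miR-28-5p and 3.47 with miR-708-5p. The line difference was called for 16, each more negative in RPE-1. Of the genes pairing through base 16 or beyond of miR-28-5p, 9 were tested in MCF10A, and 4 were called there, all higher with miR-708-5p, among them E2F6 (0.95), N4BP1 (1.19) and URGCP (0.46). The 5 genes that pair long with miR-708-5p had differences below 0 in MCF10A, and none passed the threshold.

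**Figure D5:**
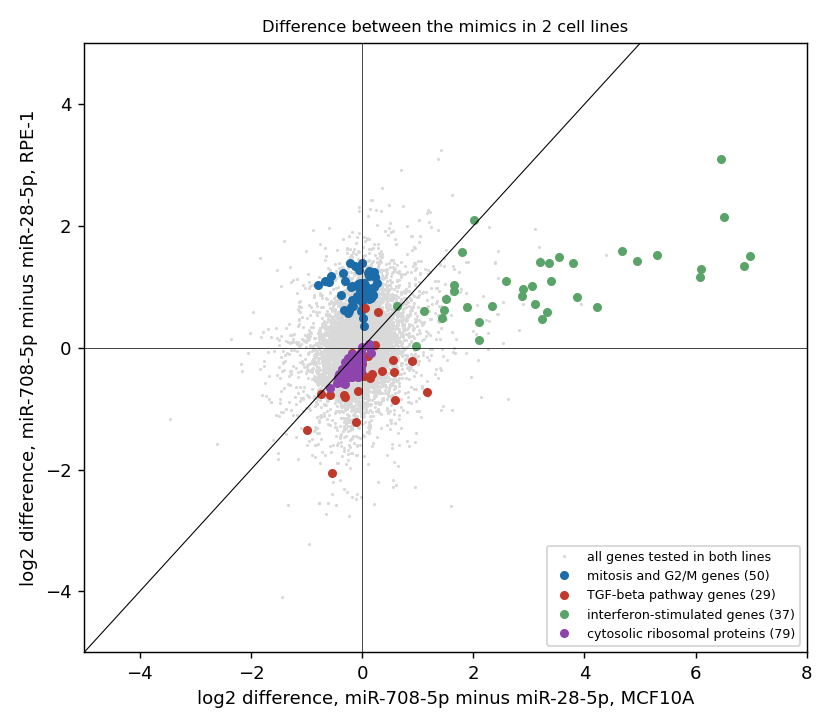
Log2 difference between the mimics in MCF10A (x axis) and in RPE-1 (y axis), where grey points are the 13339 genes tested in both lines and colours mark 4 gene lists. Mitosis genes lie above 0 in RPE-1 and around 0 in MCF10A, and interferon-stimulated genes lie farther from 0 in MCF10A.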

How the data were processed

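Polyadenylated RNA of RPE-1 and MCF10A cells was sequenced 72 h after transfection of 30 nM mimic or siNT, with 3 biological replicates per group. The authors aligned reads to hg38 with HISAT2 2.1.0, estimated counts per gene in Partek and deposited them divided by DESeq2 size factors, so the deposited signal is a normalised estimated count and whole reads were not recovered. Intervals cover the spread between libraries only. Deposited tables of the authors' own comparisons (fold changes and p-values) were not used. Per line, genes at 10 or more in at least 3 of 9 libraries were kept, log2(value + 1) was fitted over all 3 groups with limma 3.58.1 (R 4.3.3, trended variance), and p-values were adjusted by Benjamini-Hochberg over all genes tested (threshold 0.05). Fold changes are on the log2(value + 1) scale and understate those of low genes. The lines were scaled separately, so only their fold changes were compared. Scripts were tested on simulated data.

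The members, gene lists and tests were chosen with earlier results of these data known. Genes were named as the 12 largest differences in each direction (mean of at least 100, mimics not overlapping), the 5 largest among genes with opposite directions or nearer to siNT, RPS28, MYC, CDKN1A, LPP and TENM4, and up to 5 per list by size of difference. Deviations of same-numbered libraries of the mimics correlated at 0.278, 0.198 and 0.134 in RPE-1, and those of siNT with either mimic at 0.021 to 0.151. These values do not settle whether the numbers pair the libraries. The main fits have no replicate block, and blocked values are given where they change a result. Alternatives were other scalings, filters, pseudocounts, variance models and each library left out. The 3′ UTR was the longest in GENCODE 44, and pairing was counted without a break from base 2. One gene of long pairing is counted but not reported here.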

Additional observations from a re-analysis of the deposited data

Results flagged for a closer look

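For 41 of the named genes, the difference between the mimics itself differed between the lines (difference of the limma estimates, Benjamini-Hochberg adjusted p below 0.05, RPE-1 minus MCF10A on the log2 scale). Groups of 3 are too small to look for single outlying libraries.

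Cell cycle genes were more positive in RPE-1, by 1.40 in HMMR, 1.61 in ESPL1, 1.46 in TTK, 1.33 in AURKB and 1.13 in KIF2C, and among replication genes by 1.22 in ORC6, 1.23 in ORC1, 1.11 in MCM10, 1.07 in PRIM1 and 1.09 in CDC45. So were the cytokines, by 2.25 in IL1B, 2.21 in IL1A, 2.25 in CXCL3, 2.14 in CXCL2 and 2.55 in CXCL8. The same direction held for THBD (1.91), LAMA3 (2.29), RAB27B (2.05), TMTC1 (1.40), CD70 (1.31), C11orf24 (1.14), COL13A1 (1.87), HRK (1.76), MRPL38 (0.59) and PSMD2 (0.53).

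Matrix, adhesion and contractile genes were more negative in RPE-1, with CEMIP at -2.65, COL4A4 at -2.08, ACTA2 at -2.79, TAGLN at -2.38, ITGAV at -1.41, ITGB4 at -1.35, DCN at -2.84 and FBLN5 at -2.58. TGFBR1 was at -1.11 and ID3 at -1.45, and ID3 was called in opposite directions, -0.86 in RPE-1 and 0.59 in MCF10A. TP53INP1 (-0.92), TP53I3 (-0.80), HERPUD1 (-0.81), SEL1L (-0.73) and KCNC4 (-1.07) were also more negative. OAS2 was at -4.36, with 2.14 in RPE-1, where miR-28-5p replicate 1 was far below the other two, and 6.51 in MCF10A.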

How the results depend on the processing

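The 3084 genes called between the mimics became 4654 under library size scaling, 5532 with array weights and 700 with a 2-fold limit, and 1509 to 4083 with a library left out. Library size scaling gave 1445 genes differing between the lines in place of 846, 23 lists with a positive median in place of 15, a median of 0.16 for genes with the 7-base seed match, 8 lower TGF-beta genes (9 without ribosomal RNA) and 1 lower gene of long miR-708-5p pairing (2 without ribosomal RNA). Left-out libraries gave 30 to 48 mitosis genes, 19 to 39 replication genes, 8 to 19 lower TGF-beta genes, 2 to 4 lower genes of long miR-708-5p pairing and 116 to 383 MCF10A genes. The causes were not tested.

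A replicate block gave 3315 called genes in RPE-1, and beside the lists already given only small counts moved by over 1.5 times. In MCF10A, where one pair correlated at 0.025, the block gave 643 in place of 228. Genes that missed the threshold changed sign: with a library left out RPS28 ranged over -0.045 to 0.24, MYC -0.20 to 0.20, TENM4 -0.073 to 0.037, MDGA1 -0.14 to 0.18 and EPC2 -0.069 to 0.011. Library size scaling, with and then without ribosomal RNA, gave 0.20 and 0.14 for MYC, 0.22 and 0.16 for TENM4 and 0.21 and 0.15 for EPC2. Array weights gave 0.068 for TENM4 and -0.22 for MDGA1. Of 97 named genes called, 81 kept the call in every setting but the 2-fold limit, and none changed direction.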
